A study of Homo sapiens with 9 samples.

Results

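The genes examined here are 10 genes of the YAP and TEAD transcription programme, of the 26871 genes present in all 3 deposited count tables of human spinal cord organoids (SCOs). They are the secreted targets CYR61 and CTGF, the intracellular target ANKRD1, the angiomotin family members AMOTL1 and AMOTL2, the kinase LATS2, the receptor AXL, the coactivators YAP1 and WWTR1 and the DNA-binding partner TEAD1. The set was chosen by gene symbol, with earlier results from all 3 conditions known, so it was selected from the same libraries that are described below. Values of these genes are therefore a description with no p-values, and the number of them past the threshold of the fit across all genes is given only beside the share of all genes. Tests are given for 4 further lists (other conserved YAP targets, TEAD partners, Hippo pathway genes and other CCN genes), which were also drawn up with earlier results known.

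The organoids came from the human induced pluripotent stem cell line WTC, with the genotype given as WT in the labels. According to the study's methods the cells were clones of that line carrying an inserted reporter of SOX10, and each library pooled several organoids of a single clone. The 3 conditions, with 3 libraries each, were vehicle (FGF), VPA and VPA + Rapamycin, with an exposure of 96 hours in the labels and a shorter one in the study's text. VPA (valproic acid) is an anti-seizure drug that inhibits histone deacetylases, and Rapamycin inhibits the kinase mTOR. The labels give no dose and do not name the clone of a library, so the spread between the 3 libraries of a condition holds differences between clones, and no clone is known to be replicated within a condition. The comparisons ask how the pathway's transcripts differed with VPA and whether the addition of Rapamycin to VPA was accompanied by a different level. The 3 comparisons share libraries with each other, so their values are set side by side and not counted as separate evidence.

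YAP (gene YAP1) and TAZ (gene WWTR1) are coactivators that cannot bind DNA on their own and act mainly through the TEAD family of transcription factors. In the Hippo pathway the kinases MST1/2 (genes STK4 and STK3) activate LATS1 and LATS2, which phosphorylate YAP and TAZ and keep them out of the nucleus. CYR61, CTGF and ANKRD1 are the transcripts most often read as output of the pathway, and AMOTL2 and LATS2 are targets that act back on it as inhibitors. In the neural tube, YAP and TEAD activity is known for keeping progenitors dividing, and CYR61 and CTGF are also targets of serum response and AP-1 factors. A transcript level of YAP1, WWTR1 or a kinase says nothing about phosphorylation or location of the protein.

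The 10 genes did not differ as a block. CYR61 was far higher with VPA, at 347% of its mean vehicle level, and was at 21.9% of the VPA level when Rapamycin was present. CTGF, its closest relative in the set, had 94.4% of the vehicle level with VPA and 71.6% with VPA + Rapamycin. AMOTL2 differed the other way, at 36.5% of vehicle with VPA and 56.2% with VPA + Rapamycin. WWTR1 stood at 149% and YAP1 at 81.6% of vehicle with VPA, and ANKRD1 was practically without reads in all 9 libraries.

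Total counts per library ranged from 15290299 to 17417338, so that 3 counts, the floor used here, corresponded to 0.170 to 0.198 CPM, the unit of level used here, which scales counts to a common library size. Such floors and counts cover counting error only. Replicates differed from each other by more than sampling noise, with 4.62 to 37.5 times the variance of pure counting per gene. The vehicle libraries were the most unlike each other. Replicates 3 and 1 had a root mean square log2 distance of 0.593 and 0.530 from the other vehicle libraries, against 0.344 to 0.433 for the remaining 7 libraries. Neural progenitor markers (SOX1, SOX2, PAX6, NES and HES5) were abundant in every library. They summed to 1682 to 1859 CPM in vehicle libraries, 2046 to 2248 with VPA and 1788 to 1951 with the combination. HES5 averaged 316, 616 and 403 CPM in these conditions, and the others were at 98.9% to 118% of vehicle with VPA. Of 9 muscle markers, 7 were among the counted genes, with summed levels of 4.77 to 11.7 CPM. MYOG and NPPA were under 10 counts in every library. Of the others, MYOD1, DES, ACTN2 and TNNI1 had a higher mean with VPA than with vehicle. MYH3 had a lower mean, with 2.17 CPM under VPA against 3.80 CPM in vehicle. MYOD1 had 1, 0 and 0 counts in vehicle libraries, 26, 17 and 14 with VPA and 9, 17 and 7 with Rapamycin added. Neuron markers summed to 896 to 1513 CPM in vehicle libraries, 720 to 803 with VPA and 772 to 817 with the combination. In bulk RNA of whole organoids, fewer cells of a type and less RNA per cell cannot be told apart.

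CYR61 (now CCN1) encodes a secreted matricellular protein that binds integrins and is an early response gene as well as a YAP target. It lies on chromosome 1 of GRCh38 from 85580761 to 85583962 on the + strand. CYR61 had 702, 549 and 530 counts in the vehicle libraries, 2462, 1603 and 2419 with VPA and 565, 440 and 395 when Rapamycin was added. Every VPA library was above every library of the other conditions, and vehicle and VPA + Rapamycin overlapped. The level was 36.8 ± 4.40 CPM without drug, 127.8 ± 25.5 under VPA and 28.0 ± 4.83 under the combination (mean ± SD over the 3 libraries). As a log2 fold change this was 1.78 ± 0.16 (SE) for VPA over vehicle, -2.18 ± 0.13 for VPA + Rapamycin over VPA and -0.40 ± 0.15 for VPA + Rapamycin over vehicle. The first of these ranged from 1.68 to 1.94 and the second from -2.34 to -2.08 over 12 alternative settings, including the removal of each library in turn.

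CTGF (now CCN2), a matricellular protein of the same CCN family, lies on chromosome 6 from 131948176 to 131951373 on the - strand. CTGF had 1958, 1503 and 2404 counts in the vehicle libraries, 2273, 1475 and 2049 with VPA and 1550, 1259 and 1504 when Rapamycin was added. The vehicle and VPA libraries covered nearly the same range. In CPM, those with Rapamycin overlapped with the lowest VPA library and were below every vehicle library. Its level was 121.2 ± 25.3 CPM without drug, 114.4 ± 22.5 under VPA and 86.8 ± 11.7 under the combination (mean ± SD over the 3 libraries). The log2 fold changes were -0.09 ± 0.17, -0.40 ± 0.12 and -0.49 ± 0.16 (SE) for VPA over vehicle, VPA + Rapamycin over VPA and VPA + Rapamycin over vehicle. For VPA over vehicle the value had no stable sign, between -0.23 and 0.09 in the 12 alternatives.

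CYR61 and CTGF have nearly the same transcript length, and their ratio within a library removes what both share there. Per kilobase, the level of CYR61 was 0.342, 0.348 and 0.210 of that of CTGF in the vehicle libraries and 0.347, 0.333 and 0.250 in VPA + Rapamycin. With VPA it was 1.03, 1.04 and 1.12. VPA replicate 2 had the lowest counts of both genes among the VPA libraries, and its ratio was close to those of the other two.

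Promoter sequences of RefSeq (GRCh38.p14) were matched for 8 of the 10 genes, not for CYR61 and TEAD1, with 11 promoters in all. The 250 bases before each start were searched on both strands for GGAATG, the core of the TEAD motif, whose reverse complement is CATTCC. It was present in 5 of the 11 promoters and in 11.9% of 35116 promoters of the same length. Since the genes are listed as targets or components of the YAP and TEAD programme, this count is a description of the set. CTGF had 3 such matches, as 0.0826% of all promoters do, at -169, -104 and -95 from the start, and ANKRD1 had 2. The stretch of CTGF from -200 to -51 is printed because it holds all 3 of its matches, and 30 bases around each match are printed for the other genes, 5′ to 3′ on the strand of the gene, with the match in capitals. The CTGF stretch (chr6:131951423-131951572, - strand) lies in an intron of the antisense gene AL133346.1.
CTGF: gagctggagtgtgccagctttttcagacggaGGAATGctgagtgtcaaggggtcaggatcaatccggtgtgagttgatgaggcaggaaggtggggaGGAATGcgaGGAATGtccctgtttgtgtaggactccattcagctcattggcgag
ANKRD1 first match: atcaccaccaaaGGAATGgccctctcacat
ANKRD1 second match: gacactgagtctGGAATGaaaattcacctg
AMOTL2: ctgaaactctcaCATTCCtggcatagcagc
YAP1: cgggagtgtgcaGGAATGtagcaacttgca
AXL: cagactttgcacCATTCCactccctccgct
The ANKRD1 sites were at chr10:90921290-90921319, in no annotated gene, and chr10:90921198-90921227, in an untranslated exon of ANKRD1 in GENCODE 29, both on the - strand. The AMOTL2 site (chr3:134374499-134374528, - strand) is in an untranslated exon of AMOTL2. The YAP1 site (chr11:102110273-102110302, + strand) overlaps an exon of AP001527.2 on the opposite strand, and the AXL site (chr19:41226531-41226560, + strand) is intronic, before an internal start. A loose form of the AP-1 motif, TGANTCA with any base at N, was searched on both strands. It matched once, as TGATTCA in ANKRD1, against 6.57% of all promoters. The CArG box of serum response factor matched in none of the 11 promoters, against 1.16%. A match is a string of letters and not evidence of binding.

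ANKRD1 encodes a nuclear ankyrin repeat protein of striated muscle that is a strong YAP target in many adherent cells. It lies on chromosome 10 from 90912096 to 90921276 on the - strand. ANKRD1 had 0, 0 and 3 counts in the vehicle libraries, 1, 0 and 2 with VPA and 0, 3 and 2 when Rapamycin was added. All values were at or under the floor of 3 counts, so no fold change is given. The gene did not pass the filter on low counts and is not among the 9 tested genes, although its promoter holds 2 of the TEAD matches above.

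**Figure D1:**
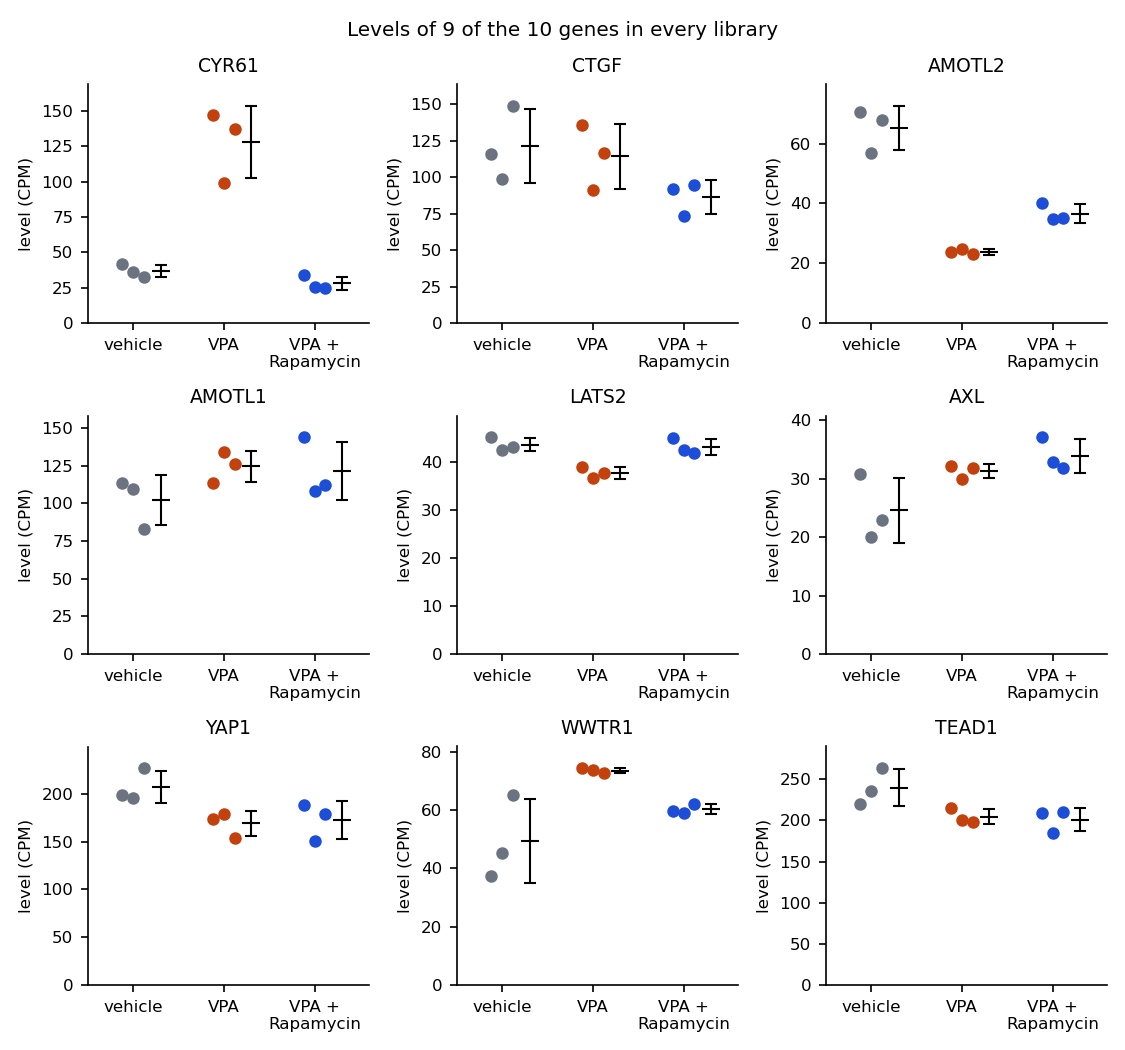
Level in CPM (y axis, linear, from 0) of 9 of the 10 genes in each of the 9 libraries (points, by condition on the x axis), with the mean and SD of the 3 libraries beside them. ANKRD1, with at most 3 counts in a library, is left out. The VPA points of CYR61 lie between 98.9 and 147.1 CPM, above all others, and those of AMOTL2 between 23.0 and 24.8 CPM, below all others.

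AMOTL2 and AMOTL1 are angiomotin family scaffolds that bind YAP at junctions, and AMOTL2 is both a target and an inhibitor of YAP. AMOTL2 (chromosome 3, 134355874 to 134375479, - strand) had 1195, 864 and 1100 counts in the vehicle libraries, 396, 402 and 404 with VPA and 677, 595 and 556 when Rapamycin was added. The 3 conditions did not overlap, with vehicle highest and VPA lowest. Its level was 65.2 ± 7.33 CPM without drug, 23.8 ± 0.933 under VPA and 36.7 ± 3.14 under the combination (mean ± SD over the 3 libraries). The log2 fold changes were -1.47 ± 0.13 for VPA over vehicle, 0.63 ± 0.10 for VPA + Rapamycin over VPA and -0.84 ± 0.13 for VPA + Rapamycin over vehicle. Over the 12 alternatives they ranged from -1.56 to -1.40, from 0.55 to 0.66 and from -0.93 to -0.78.

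AMOTL1 (chromosome 11, 94706431 to 94876753, + strand) had 1922, 1661 and 1342 counts in the vehicle libraries, 1902, 2178 and 2217 with VPA and 2421, 1857 and 1786 when Rapamycin was added. The conditions overlapped, with log2 fold changes of 0.28 ± 0.13, -0.03 ± 0.10 and 0.24 ± 0.15 for VPA over vehicle, VPA + Rapamycin over VPA and VPA + Rapamycin over vehicle. Per kilobase the 2 paralogs were close in vehicle, where AMOTL2 had 1.04, 0.872 and 1.37 times the level of AMOTL1. The ratio was 0.349, 0.310 and 0.306 in VPA and 0.469, 0.537 and 0.522 in VPA + Rapamycin. AMOTL1 was the more abundant of the pair in every drug-exposed library.

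YAP1 (chromosome 11, 102110461 to 102233423, + strand) had 3360, 2968 and 3663 counts in the vehicle libraries, 2907, 2904 and 2713 with VPA and 3164, 2584 and 2834 when Rapamycin was added. The vehicle libraries were above all others in CPM, at 207.0 ± 17.2 against 169.0 ± 13.1 under VPA and 172.4 ± 19.6 under the combination (mean ± SD over the 3 libraries). The log2 fold change was -0.30 ± 0.11 for VPA over vehicle and 0.03 ± 0.09 for VPA + Rapamycin over VPA.

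WWTR1 (chromosome 3, 149517235 to 149736714, - strand) had 631, 690 and 1055 counts in the vehicle libraries, 1244, 1195 and 1278 with VPA and 1004, 1014 and 988 when Rapamycin was added. The drug-exposed libraries were tight and the vehicle libraries were not. Levels were 49.4 ± 14.4 CPM without drug, 73.6 ± 0.863 under VPA and 60.3 ± 1.70 under the combination (mean ± SD over the 3 libraries). VPA was above all others, and vehicle replicate 3 was above the libraries with Rapamycin. The log2 fold change for VPA over vehicle was 0.56 ± 0.18, with 0.83 ± 0.12 without vehicle replicate 3 and 0.40 ± 0.14 without vehicle replicate 1. For VPA + Rapamycin over VPA it was -0.28 ± 0.08.

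The balance of the 2 coactivator transcripts differed with VPA. Per kilobase, WWTR1 was at 0.141, 0.174 and 0.216 of YAP1 in the vehicle libraries, 0.320, 0.308 and 0.353 in VPA and 0.237, 0.294 and 0.261 in VPA + Rapamycin. The 3 conditions did not overlap, and YAP1 was the more abundant transcript in every library.

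**Figure D2:**
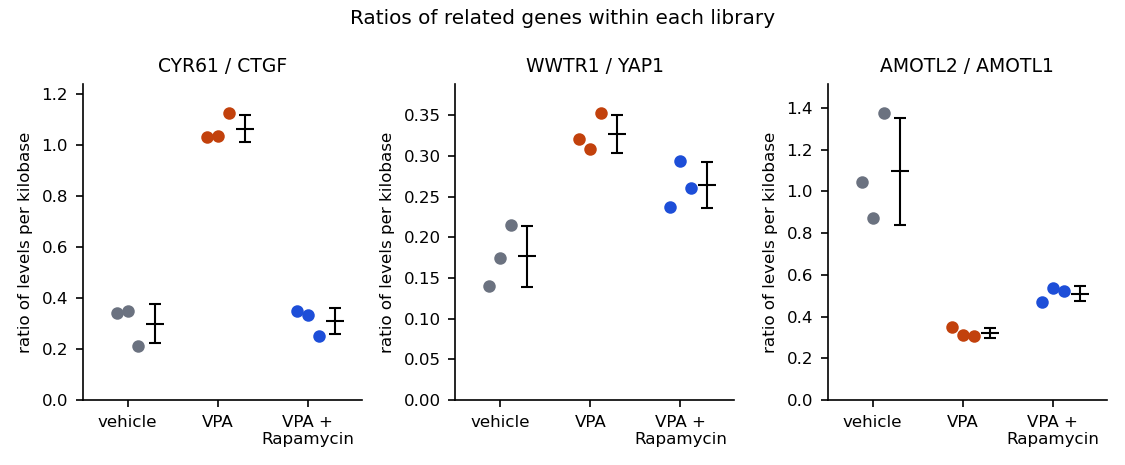
Ratio of the levels per kilobase of 2 related genes within each library (points, y axis from 0) by condition, with the mean and SD of the 3 libraries beside them. CYR61 over CTGF was near 1 in VPA and under 0.35 elsewhere, WWTR1 over YAP1 was highest in VPA, and AMOTL2 over AMOTL1 was lowest in VPA.

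TEAD1 (chromosome 11, 12674591 to 12944483, + strand) is a member of the TEAD family through which YAP and TAZ reach DNA. It had 3709, 3587 and 4256 counts in the vehicle libraries, 3601, 3257 and 3483 with VPA and 3506, 3169 and 3328 when Rapamycin was added. Its log2 fold change was -0.24 ± 0.10 for VPA over vehicle and -0.02 ± 0.07 for VPA + Rapamycin over VPA. LATS2 (chromosome 13, 20973032 to 21061547, - strand), the kinase that inhibits YAP, had 762, 645 and 695 counts in the vehicle libraries, 651, 592 and 661 with VPA and 754, 727 and 664 when Rapamycin was added. In CPM the VPA libraries of LATS2 were below all others, by a small margin: 37.7 ± 1.18 against 43.5 ± 1.38 without drug and 43.0 ± 1.61 under the combination (mean ± SD over the 3 libraries). AXL (chromosome 19, 41219203 to 41261766, + strand), a receptor tyrosine kinase for GAS6, had 520, 305 and 371 counts in the vehicle libraries, 539, 485 and 560 with VPA and 624, 563 and 504 when Rapamycin was added. Vehicle replicate 1 of AXL lay within the range of VPA, and the log2 fold change for VPA over vehicle was 0.34 ± 0.16 and 0.53 ± 0.13 without that library.

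By level per kilobase in vehicle, CTGF came first with 51.8 ± 10.8 CPM per kilobase, followed by YAP1 with 32.9 ± 2.73, TEAD1 with 23.3 ± 2.16 and CYR61 with 15.0 ± 1.79 (SD, n = 3). AMOTL2 with 10.9 ± 1.23 and AMOTL1 with 10.2 ± 1.65 did not differ beyond their spread, nor did WWTR1 with 5.87 ± 1.71 and AXL with 4.77 ± 1.07, and LATS2 stood between these pairs with 7.80 ± 0.247. In VPA, CYR61 with 52.1 ± 10.4 and CTGF with 48.9 ± 9.60 were the highest and did not differ beyond their spread, while AMOTL2 with 3.98 ± 0.156 was the lowest of the 9. In VPA + Rapamycin, CTGF was first again with 37.1 ± 5.01 and CYR61 was at 11.4 ± 1.97.

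**Figure D3:**
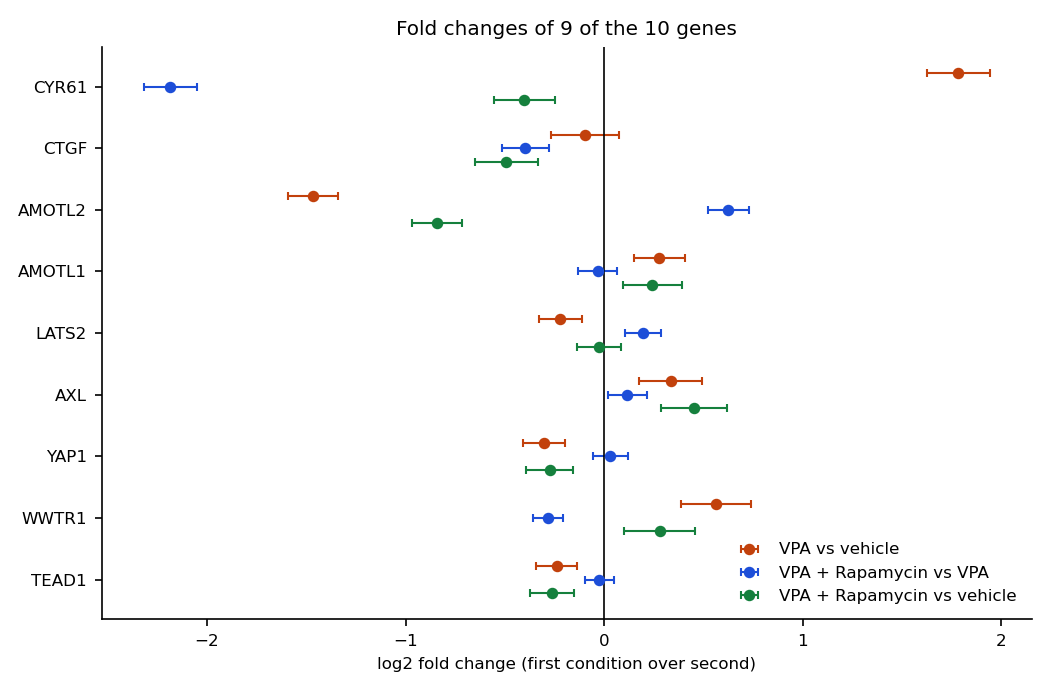
Log2 fold change (x axis) with its standard error (bars) of 9 of the 10 genes (y axis) in the 3 comparisons, from 3 libraries in each condition. The values of CYR61 for VPA over vehicle (1.78) and for VPA + Rapamycin over VPA (-2.18) and of AMOTL2 for VPA over vehicle (-1.47) lie farthest from 0.

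Read with the test across all genes (edgeR, adjusted p of at most 0.05), CYR61 and WWTR1 were called higher and AMOTL2 and YAP1 lower with VPA than with vehicle, which is 2 and 2 of 9 tested genes. Over all 17360 genes tested, 16.4% were called higher and 15.7% lower. For VPA + Rapamycin over VPA, AMOTL2 was called higher and CYR61, CTGF and WWTR1 lower, with backgrounds of 3.01% and 3.73%. For VPA + Rapamycin over vehicle, 0 genes were called higher (1 at an unadjusted p under 0.05, 0 with DESeq2) and AMOTL2 was called lower (2 genes with DESeq2), with backgrounds of 9.81% and 9.22%. The genes were selected on these contrasts, so nothing is read from the counts. The calls of CYR61 and AMOTL2 in these sentences were made in all 12 alternatives, that of YAP1 in 5, that of WWTR1 in 8 for VPA over vehicle and in 4 for VPA + Rapamycin over VPA, and that of CTGF in 7. Genes without a call for VPA + Rapamycin over vehicle were called in some alternatives, CTGF lower in 7, CYR61 lower in 2, TEAD1 lower in 1, AXL higher in 4 and WWTR1 higher in 1. Without any 1 of the VPA libraries, or without vehicle replicate 2, only CYR61 and AMOTL2 were called for VPA over vehicle, while without vehicle replicate 1 the counts were 4 higher and 3 lower.

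Mesenchyme is a tissue in which CYR61 and CTGF are usually abundant. The summed level of its markers differed between the conditions, mostly through COL1A1 and COL1A2. The 11 markers summed to 152.0 to 317.3 CPM in vehicle libraries, 580.3 to 738.0 with VPA and 257.5 to 384.6 with the combination, and 11, 11 and 8 of them averaged at least 10 counts in these conditions. COL1A1 and COL1A2 made up 67.8% of the sum in vehicle replicate 3 and 86.2% to 93.8% in the other libraries. The other 9 markers summed to 21.0 to 83.5 CPM in vehicle libraries, 36.8 to 56.9 with VPA and 21.8 to 26.7 with the combination, and the highest value was that of vehicle replicate 3, without which the vehicle libraries were at 21.0 and 31.4 CPM. By mean, PRRX1, COL3A1, PDGFRA, DCN and POSTN were lower with VPA than with vehicle, at 34.8% to 75.7% of it. The remaining markers, COL1A1 and COL1A2 among them, were higher by mean. PRRX1, which marks mesenchyme of limb and face, had 0, 0 and 53 counts in the vehicle libraries, 19, 20 and 2 with VPA and 13, 3 and 0 when Rapamycin was added. In vehicle, DCN with 0, 0 and 97 counts and TWIST1 with 0, 1 and 63 counts also came almost entirely from replicate 3. COL3A1 with 8, 11 and 85 counts and POSTN with 2, 20 and 85 came mostly from it. In CPM, the other vehicle libraries of COL3A1 were below every VPA library. The part of the mesenchyme markers in the differences of CYR61 and WWTR1 was not tested.

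Among 16 other conserved YAP targets, those raised and those lowered by VPA were mixed. Of 15 tested, 4 rose, 6 fell and 5 did not pass the test for VPA over vehicle, where 16.4% of all genes rose and 15.7% fell. Their median was -0.13 on the log2 scale, against -0.00 over all genes. The largest decreases were those of IGFBP3, an insulin-like growth factor binding protein, with -2.69 ± 0.28 (SE, edgeR adjusted p = 8.96e-05), and of TGFB2, a TGF-beta ligand, with -1.13 ± 0.16 (adjusted p = 0.000414). ARHGEF17, a guanine nucleotide exchange factor, fell by 0.87 on the log2 scale (SE 0.12, edgeR adjusted p = 0.000356) and RBMS3, an RNA-binding protein, fell by 0.82 (SE 0.13, adjusted p = 0.00104). The 4 that rose, named after their values were seen, were F3, DOCK5, FJX1 and PTPN14, with log2 fold changes of 0.41 to 0.88. None of these 4 passed the test without vehicle replicate 2 or without VPA replicate 3, FJX1 alone did without VPA replicate 2, and FJX1 and PTPN14 did without VPA replicate 1. The call of F3 was also lost without vehicle replicate 3. With single libraries left out, the log2 fold changes of the 4 lay between 0.36 and 1.19. NT5E, also named after its values were seen, had the largest positive value, 2.01 ± 0.76, and did not pass (edgeR adjusted p = 0.0637). It had 3, 0 and 9 counts in vehicle libraries, 11, 20 and 21 with VPA and 1, 4 and 7 with Rapamycin added. It was called higher without a low-count filter, with the replicate block and without vehicle replicate 3.

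With Rapamycin added to VPA, 3 of the 15 rose and 3 fell, with a median of -0.08 against 0.00 over all genes, of which 3.01% rose and 3.73% fell. TGFB2 and FJX1 are named here after their values were seen. ARHGEF17, CRIM1, a transmembrane protein that binds BMPs, and TGFB2, all of which were lower in VPA than in vehicle, rose by 0.38 to 0.43 on the log2 scale (edgeR adjusted p = 0.00168, 0.00364 and 0.0138). For CRIM1 the value for VPA over vehicle was -0.47 ± 0.12 (edgeR adjusted p = 0.0136). That call was lost without vehicle replicate 2, VPA replicate 2 or VPA replicate 3 (edgeR adjusted p of up to 0.0767). GADD45A, a stress response gene, and MYOF, a membrane repair protein, fell by 0.66 and 0.72 (edgeR adjusted p = 0.0136 and 0.00431). FJX1 fell by 0.38 (edgeR adjusted p = 0.0332). IGFBP3 and RBMS3 did not pass the test here. Of 14 targets tested for VPA + Rapamycin over vehicle, 0 rose (0 also at an unadjusted p under 0.05 and with DESeq2) and 4 fell, against 9.81% and 9.22% of all genes, with a median of -0.34 against -0.00. These were IGFBP3 with -2.36 ± 0.39, RBMS3 with -0.88 ± 0.15, TGFB2 with -0.75 ± 0.15 and ARHGEF17 with -0.44 ± 0.12 (edgeR adjusted p = 0.00312, 0.00378, 0.00744 and 0.0271). The call of ARHGEF17 was lost without vehicle replicate 2 and without any 1 of the VPA + Rapamycin libraries (edgeR adjusted p of up to 0.120). When all 9 libraries were fitted together, no target passed the test for VPA + Rapamycin over VPA. Apart from FJX1, the genes named as rising or falling then had an edgeR adjusted p of 0.0887 to 0.263. The call of TGFB2 for VPA + Rapamycin over VPA was also lost without VPA replicate 3, and that of GADD45A without VPA replicate 1 or VPA + Rapamycin replicate 3, where 1 target in all fell. That of FJX1 was lost without VPA replicate 3 or VPA + Rapamycin replicate 1 or 3.

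Among the TEAD partners, the less abundant members rose with VPA. VGLL3, a cofactor that competes with YAP for TEAD, rose from 5.49 ± 1.84 to 18.0 ± 2.20 CPM (SD, n = 3 each) with a log2 fold change of 1.71 ± 0.24 (edgeR adjusted p = 0.000494). TEAD4 rose from 3.36 ± 1.06 to 8.22 ± 0.235 CPM, with 1.28 ± 0.25 (edgeR adjusted p = 0.00329), and TEAD3 fell from 59.0 ± 9.48 to 40.1 ± 1.92 CPM, with -0.57 ± 0.13 (adjusted p = 0.00767). TEAD2 and VGLL4 did not pass the test, and VGLL1 and VGLL2 were not tested. VGLL3 fell by 0.70 on the log2 scale (SE 0.14, edgeR adjusted p = 0.00548) with Rapamycin added to VPA (0.153 with all 9 libraries fitted together) and was still above vehicle, by 1.01 ± 0.25 (adjusted p = 0.0194). This last call was lost without vehicle replicate 2 and without any 1 of the VPA + Rapamycin libraries, with adjusted p of 0.0541 to 0.0746, as was that of TEAD3, lower in VPA + Rapamycin than in vehicle by -0.49 ± 0.14 (adjusted p = 0.0301).

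Of 19 Hippo pathway genes, 2 rose and 5 fell with VPA, with a median of -0.11. Over all genes 16.4% rose and 15.7% fell, so nothing particular to the pathway is read from these counts. The kinases TAOK1 and MAP4K4, which act upstream of LATS, fell by 0.58 and 0.55 on the log2 scale, and MOB1B, the coactivator of LATS, fell by 0.66 (edgeR adjusted p = 0.00162, 0.00173 and 0.00278). FRMD6, an upstream scaffold, rose by 0.65 ± 0.17 (edgeR adjusted p = 0.0116, and 0.0540 without vehicle replicate 2). With Rapamycin added to VPA, AMOT, a relative of AMOTL1 and AMOTL2, rose by 0.43 ± 0.09 (edgeR adjusted p = 0.00625, and 0.0810 with all 9 libraries fitted together) and 0 genes fell (1 at an unadjusted p under 0.05, 0 with DESeq2). Against vehicle, TAOK1, MAP4K4 and MOB1B were also lower in VPA + Rapamycin, by -0.49 ± 0.12, -0.47 ± 0.11 and -0.54 ± 0.13 (edgeR adjusted p = 0.0177, 0.0123 and 0.0194), and 0 genes rose (2 at an unadjusted p under 0.05, 0 with DESeq2). In place of these 3, 5 genes fell without vehicle replicate 1 or 3, 1 without vehicle replicate 2 or VPA + Rapamycin replicate 1 or 3, and 0 without VPA + Rapamycin replicate 2. The 5 that fell with VPA became 3 without vehicle replicate 2 or any 1 of the VPA libraries.

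In the CCN family, beside CYR61 and CTGF, NOV (CCN3) was detected at a low level. NOV had 22, 9 and 13 counts in the vehicle libraries, 59, 48 and 46 with VPA and 63, 23 and 47 when Rapamycin was added. All drug-exposed libraries were above all vehicle libraries, VPA + Rapamycin replicate 2 by a small margin (1.34 against 1.30 CPM). It rose by 1.73 ± 0.38 on the log2 scale with VPA (edgeR adjusted p = 0.00616) and by 1.55 ± 0.47 with VPA + Rapamycin (adjusted p = 0.0413), and the second call was lost without vehicle replicate 2 or 3 or VPA + Rapamycin replicate 1 or 3 (adjusted p = 0.0530 to 0.179). NOV had a log2 fold change for VPA + Rapamycin over VPA of -0.18 ± 0.34 (edgeR adjusted p = 0.815). The means of NOV were 0.900, 3.03 and 2.68 CPM in the 3 conditions, so that its level stayed near that of VPA where CYR61 was near vehicle. This difference between the genes was not tested. WISP3 averaged 0.468, 0.633 and 0.441 CPM and did not pass the test.

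Among 14397 protein-coding genes, the pattern closest to that of CYR61 over the 9 libraries was that of ZFP36, which encodes an mRNA-destabilising protein of the early response, with a root mean square log2 difference of 0.249 after each gene was centred on its vehicle mean. ZFP36 was at 2.22 ± 0.531 CPM without drug, 6.14 ± 1.68 under VPA and 1.60 ± 0.230 under the combination (mean ± SD over the 3 libraries). CD70, JUNB and MICAL2 followed with 0.450 to 0.478, and of these JUNB, a subunit of AP-1, was the most abundant, with 8.88 ± 2.93, 48.4 ± 13.3 and 6.73 ± 0.583 CPM. For CTGF, whose own differences were small, the closest were CKS2 with 0.153, then HEY1, LRIG2, RHOB and CCDC138 with up to 0.170. CYR61 and CTGF were far apart by this measure, with log2 fold changes of 1.78 and -0.09 for VPA over vehicle. A gene near to CYR61 could therefore not be among the 5 nearest to CTGF, and nothing is read from the lack of shared genes.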

How the data were processed

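Poly-A RNA of 9 pools of SCOs (3 libraries for each of 3 conditions) was sequenced after priming with random hexamers. The submitters' processing notes name HISAT2 2.0.5 and featureCounts 1.5.0-p3 without their settings, and use of the strand is not given in the sources used here. The authors deposited 1 table of read counts per gene for each pair of conditions, with genes under 2 counts over a table left out, and the counts are not normalized. Gene coordinates match GENCODE 29 on GRCh38. The authors' own normalized values, FPKM (36 columns of values per library and 6 of group means) and DESeq2 fold changes and p-values were not used.

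Pairs of conditions were fitted separately, each from its own table, with edgeR 4.0.16 in R 4.3.3 (TMM normalization, filterByExpr at its defaults, quasi-likelihood F test, Benjamini-Hochberg adjusted p of at most 0.05). The standard error was taken from the log2 fold change and its F statistic. Levels in CPM were computed from the counts with TMM factors set on all 9 libraries, and levels between genes were compared per kilobase of the deposited gene length. Genes overlapping one of the 10 had at most 0.626% of its counts, under the limit of 10% set for naming them. The 10 genes, the lists and the alternatives were chosen with earlier results of these data known. The tested genes named are, for each list and comparison, up to 4 past the threshold with the smallest p, the detected CCN genes and the 5 genes with the pattern closest to CYR61 and to CTGF, of which 1 is not reported here. Other genes are named after their values were seen, as stated beside them. WISP1, WISP2 and VGLL1 were not analysed here, and FOXF2 and VGLL2 did not pass the filter on low counts. Alternatives were DESeq2 1.42.0, its size factors in edgeR, testing without a low-count filter or with a minimum of 10 counts in each library, a single fit of all 9 libraries, the replicate number as a block, a minimum absolute log2 fold change of 1, and removal of each library singly. The scripts were tested on simulated data.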

Additional observations from a re-analysis of the deposited data

How the results depend on the processing

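Under all 12 alternatives the log2 fold changes of the 9 genes moved by less than 1 SD of the replicates (pooled over both conditions, on the log2 scale), although some moved by more than their standard error, the most being WWTR1 for VPA over vehicle without vehicle replicate 3. Removal of 1 of 3 libraries can hardly move a group mean by that SD, so this outcome was nearly fixed in advance for the removals. It is no measure of stability. None of the named genes past the threshold changed direction. With a minimum absolute log2 fold change of 1, counts for VPA over vehicle became 0 raised and 2 lowered conserved targets, 0 raised and 0 lowered Hippo genes and 0 lowered TEAD partners. For VPA + Rapamycin over VPA all became 0 (conserved targets raised 0 and lowered 0, Hippo genes raised 0, TEAD partners lowered 0), and for VPA + Rapamycin over vehicle they became 1 lowered conserved target, 0 lowered Hippo genes and 0 lowered TEAD partners. With all 9 libraries in a single fit, which shares 1 estimate of the spread with the more variable vehicle libraries, VPA + Rapamycin over VPA had 0 raised and 0 lowered conserved targets, 0 raised Hippo genes and 0 lowered TEAD partners. The same fit gave 4 raised Hippo genes for VPA over vehicle and 1 raised Hippo gene, 5 lowered Hippo genes and 2 raised TEAD partners for VPA + Rapamycin over vehicle. The last comparison also had 5 lowered Hippo genes with DESeq2 and 5 with no filter on low counts.

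Leaving out single libraries, the ranges for VPA over vehicle were 0 to 5 raised conserved targets, 0 to 3 raised and 3 to 6 lowered Hippo genes and 1 to 2 lowered TEAD partners. For VPA + Rapamycin over VPA, lowered conserved targets ranged from 1 to 3. For VPA + Rapamycin over vehicle the ranges were 3 to 6 lowered conserved targets, 0 to 2 raised and 0 to 5 lowered Hippo genes, 0 to 2 raised and 0 to 2 lowered TEAD partners. The cause of these differences was not tested. The alternatives for NOV were chosen after seeing the data, and NOV gave no value with a minimum of 10 counts in each library.

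The replicate numbers were not taken as a pairing, since the labels do not say which clone a number stands for and the correlation of same-numbered deviations ran from -0.104 to 0.0591 for VPA and vehicle, from -0.0431 to 0.112 for VPA + Rapamycin and VPA and from 0.0598 to 0.189 for VPA + Rapamycin and vehicle. Library names carry the same prefix for the same replicate number in every condition. The study gives its clones other names, so a shared number may stand for a shared clone, but this is not stated. With the replicate block, VPA + Rapamycin over vehicle had 5 lowered Hippo genes in place of 3 and 2 raised TEAD partners in place of 1, and the other list counts stayed within 1.5 times. Of the 9 genes, the block left YAP1 uncalled for VPA over vehicle and WWTR1 uncalled for VPA + Rapamycin over VPA, and for VPA + Rapamycin over vehicle it gave 1 higher (AXL) and 3 lower (AMOTL2, CYR61 and CTGF) in place of 0 and 1.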
